A study of Caenorhabditis elegans with 12 samples.

Results

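Expression in hrg-2 mutant Caenorhabditis elegans was compared with that in wildtype animals when both were grown at 4 µM heme, the lower of the heme supplies studied. The comparison takes 6 of the study's 12 arrays, 3 mutant and 3 wildtype, chosen by genotype and heme concentration as the labels give them. The remaining 6 arrays hold the same genotypes at 20 µM heme. RNA came from larvae in the middle to late part of L4, the final larval stage, and was hybridised to Affymetrix arrays, one array per sample. The labels name no allele, promoter or strain for the mutant, and no treatment beyond heme. Whether the 3 arrays of a group come from separate cultures is not stated, and the p-values measure only how far these samples spread, which may be technical. Precision is limited by having 3 arrays a group.

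Worms cannot make heme and depend on what they take up from their medium. The intestine imports heme through the transporters HRG-1 and HRG-4, the exporter MRP-5 passes it on, and the secreted proteins HRG-3 and HRG-7 act in heme delivery or signalling between tissues. HRG-2, a membrane protein, helps the hypodermis use heme, and that tissue is the skin layer that secretes the cuticle. Its gene is induced when heme is scarce, so this comparison asks what its loss changes under the condition in which wildtype animals need it most.

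Values are log2 expression from RMA, one per probe set and array. The 4 µM arrays had medians of 5.735 to 5.92, and the lowest value on an array was 1.76 to 1.92. Values near that minimum are the floor of the signal. A gene is called clear of the floor here when the mean of its higher group reached 5.85, the median of every value. This held for 9333 of 17138 genes. For hrg-2 itself there were 0 probe sets in the annotation used, and the mutated gene could not serve to check the genotype labels.

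The arrays numbered 3 stood apart in both genotypes. Across probe sets, wildtype arrays 1 and 2 correlated at r = 0.990 and mutant arrays 1 and 2 at r = 0.987, while array 3 of the wildtype and array 3 of the mutant correlated at r = 0.968. Array 3 of either genotype correlated with arrays 1 and 2 of either genotype at r from 0.858 to 0.932. The difference between mutant and wildtype also ran unlike in pair 3. Over genes, the same-numbered differences of pairs 1 and 2 correlated at r = 0.642, those of pairs 1 and 3 at r = -0.203 and those of pairs 2 and 3 at r = -0.110. Genes are not independent replicates, and these r values describe the arrays. The difference had 1 sign in every pair for 5099 genes (29.8%). Values without array 3 of either genotype, or pair by pair, are therefore given for the gene lists below. On arrays 1 and 2 alone 923 genes (5.39%) passed as higher in the mutant and 1129 (6.59%) as lower by limma, and the calls given for lists on those arrays are read against these shares.

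**Figure D1:**
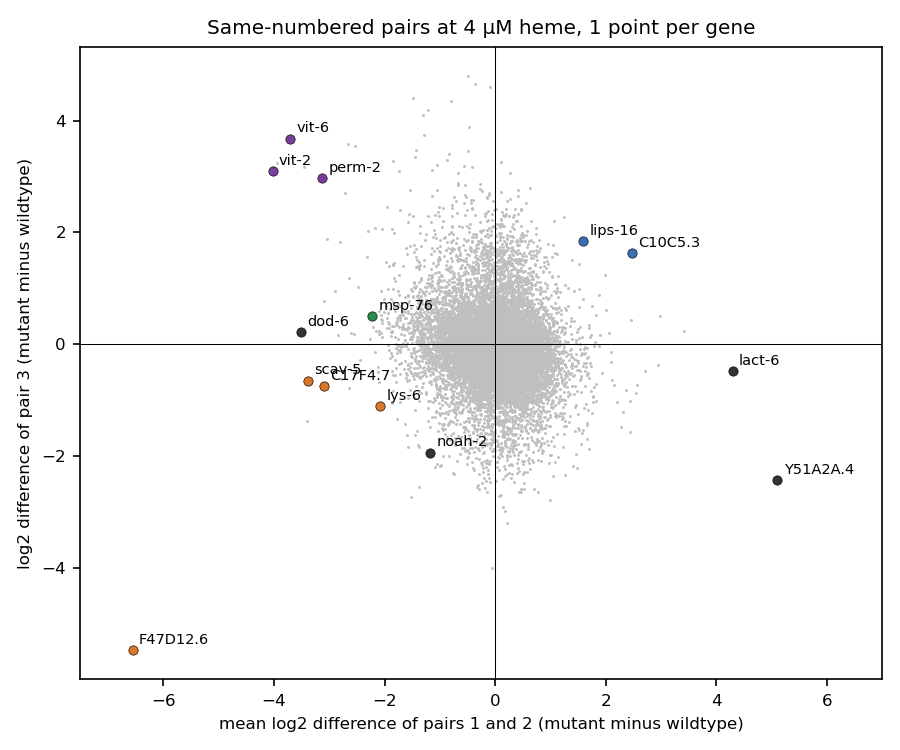
Each point is a gene; the x axis is the mean log2 difference (mutant minus wildtype) of the pairs numbered 1 and 2, and the y axis is the log2 difference of the pair numbered 3. F47D12.6 lies far to the lower left, at -5.48 in pair 3, and most remaining genes lie around 0 on the y axis with no common slope.

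By limma on all 12 arrays, 2 of 22548 probe sets differed between the genotypes at 4 µM (0.00887%), both lower in the mutant. Of the 17138 genes, 1 passed. At an unadjusted p under 0.05 there were 435 genes higher in the mutant (2.54%) and 542 lower (3.16%). The median difference over genes was 0.04.

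F47D12.6, a gene on chromosome III for which no function is given here, fell to the floor of the signal. Its log2 levels were 9.12, 9.32 and 8.36 on the wildtype arrays and 2.79, 2.54 and 2.88 on the mutant arrays. The groups were separated by more than 5 log2 units, and every mutant array lay near the array minimum. The difference was -6.20 ± 0.27 (SE), a 73.4-fold fall limited by the floor, and limma gave an adjusted p of 9.44e-06. The pairs differed by -6.34, -6.78 and -5.48, so the fall was present with and without array 3. At 20 µM heme its levels were 8.95, 9.25 and 8.63 in wildtype and 2.71, 2.98 and 2.48 in the mutant. The gene was thus at the floor in the mutant at both heme supplies.

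Other genes of the F47D12 clone, named for the same stretch of cloned DNA, did not share that pattern. F47D12.3 had levels of 6.49, 6.40 and 6.58 in wildtype and 7.71, 7.54 and 7.53 in the mutant. Every mutant array lay above every wildtype array, and the difference of 1.10 ± 0.24 did not pass over all genes (adjusted p 0.791 by limma). At 20 µM it was 1.37, again without overlap. F47D12.9 differed by -0.78 ± 0.39 (another probe set by -0.47) with overlapping groups. F47D12.7 was near the floor on 5 arrays, and at 7.23 on wildtype array 3.

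The second to fall was 185275_at, a probe set to which the annotation gives no gene. Its levels were 8.79, 10.07 and 9.32 in wildtype and 3.55, 4.00 and 3.19 in the mutant. All wildtype arrays were high and all mutant arrays low, a difference of -5.81 ± 0.50 or 56.2-fold, with an adjusted p of 0.00361 by limma. At 20 µM heme its wildtype levels were 5.06, 4.93 and 3.20 and its mutant levels 3.78, 3.84 and 3.17. There the groups overlapped, and the difference was -0.80 ± 0.50. The difference between the genotype effects at 20 and 4 µM was 5.01 ± 0.71, with an unadjusted p of 2.99e-05 and an adjusted p of 0.674 by limma. The transcript it measures was not identified here, and whether it is that of hrg-2 itself could not be told.

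**Figure D2:**
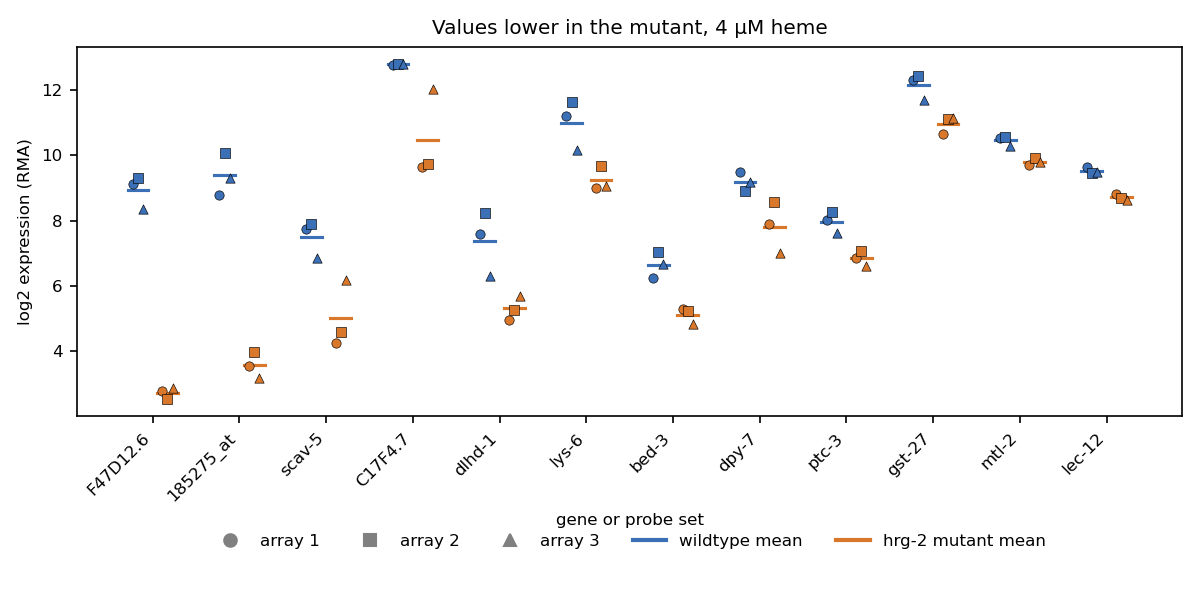
Log2 expression at 4 µM heme on each array (symbols mark the arrays numbered 1 to 3, bars the group means) for the probe sets that fell and for genes lower on every mutant array. F47D12.6 and 185275_at drop to between 2.54 and 4.00 in the mutant, while the remaining genes keep levels above that and differ by less.

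The neighbourhood of hrg-2 on chromosome V was read from the gene order of the RefSeq annotation of WBcel235. The gene just before hrg-2 is cdr-4, and cdr-7, cdr-6, cdr-2 and cdr-3 follow it. The cdr genes encode cadmium-responsive proteins of the family to which HRG-2 itself belongs. Of 16 genes within 8 places on either side, 12 were measured, and 0 had groups that did not overlap. Their differences ran from -0.44 to 1.00, with a smallest unadjusted p of 0.293.

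Among the cdr genes, cdr-4 had levels of 9.80, 9.83 and 8.14 in wildtype and 9.17, 9.26 and 8.01 in the mutant, a difference of -0.44 ± 0.64. cdr-6 differed by -0.40 ± 0.55 and cdr-2 by -0.00 ± 0.71, each lower on both arrays numbered 3 than on the arrays numbered 1 and 2. cdr-3 lay near the floor, at 2.25 to 2.83 on every array. cdr-1, the most strongly cadmium-induced member of the family, had levels of 5.85, 5.82 and 5.01 in wildtype and 7.00, 6.84 and 5.10 in the mutant. It was higher on mutant arrays 1 and 2, and pair 3 differed by 0.09. The difference was 0.75 ± 0.46 on all arrays and 1.09 on arrays 1 and 2 alone, where its adjusted p was 0.0135 by limma.

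None of the 7 measured genes of heme trafficking passed the test, 0 had groups that did not overlap, and their differences ran from -0.26 to 0.36. Among the importers, hrg-1 had levels of 10.72, 10.65 and 9.59 in wildtype and 10.51, 10.38 and 9.42 in the mutant. The mutant array was the lower in each pair, with pairs of -0.21, -0.27 and -0.17, and array 3 of each genotype lay further below that genotype's arrays 1 and 2. hrg-4 had levels of 8.91, 9.21 and 8.10 in wildtype and 9.02, 9.22 and 7.69 in the mutant, so its pairs differed in sign. mrp-5, the exporter, had levels of 9.53, 9.67 and 9.71 in wildtype and 9.97, 9.67 and 9.03 in the mutant, and these ranges overlapped (another probe set differed by -0.63).

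Of the secreted proteins, hrg-3, which carries heme from the mother's intestine to embryos, had levels of 8.21, 8.35 and 7.48 in wildtype and 8.09, 7.75 and 7.42 in the mutant. hrg-7, an aspartic protease homologue that signals heme status between tissues, had levels of 12.42, 12.42 and 12.32 in wildtype and 12.77, 12.72 and 12.05 in the mutant. Pair 3 again ran against the others. hrg-9 had levels of 7.36, 7.36 and 8.37 in wildtype and 8.49, 7.97 and 7.24 in the mutant. Its pairs 1 and 2 were higher in the mutant and its pair 3 lower, for a difference of 0.21 ± 0.38 (another probe set -0.10). On arrays 1 and 2 alone its difference of 0.87 passed (adjusted p 0.0390 by limma). hrg-10 differed by 0.36 ± 0.26, and by 0.64 on arrays 1 and 2 alone.

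Enzymes and carriers that hold heme were examined next. Of 75 cytochrome P450 genes, which encode heme-dependent oxidases of lipids and foreign compounds, 0 passed, and 7 were higher and 2 lower on every mutant array. The same was true of 841 genes (4.91%) and 673 genes (3.93%) among all 17138. The P450 median was 0.05, and 35 of the 75 were clear of the floor. After each array was centred on its median, 11 were higher and 1 lower, where 10.5% and 1.86% of all genes were. The same shares stand behind the centred counts of the lists that follow, and the 4.91% and 3.93% behind their counts before centring. On arrays 1 and 2 alone 8 passed as higher and 2 as lower. cyp-35B1 had levels of 6.77, 6.96 and 6.80 in wildtype and 6.55, 6.30 and 6.09 in the mutant, low on each mutant array. cyp-37B1, at 8.96, 10.47 and 10.62 in wildtype and 6.88, 7.25 and 9.84 in the mutant, differed by -2.03 ± 0.71 with an overlap between wildtype array 1 and mutant array 3. cyp-33C8 had levels of 7.96, 7.48 and 6.97 in wildtype and 9.49, 9.69 and 6.93 in the mutant. It was higher on mutant arrays 1 and 2 alone.

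The 30 globin genes had a median difference of 0.17, with 7 clear of the floor and 0 passing on arrays 1 and 2 alone. glb-13 was the globin of smallest p, at 5.18, 5.15 and 5.15 in wildtype and 4.61, 4.41 and 4.66 in the mutant, without overlap. Of 10 catalases and heme peroxidases, 1 was lower on every mutant array, and 1 passed as lower on arrays 1 and 2 alone. The gene lower on every mutant array was pxn-1, a peroxidasin of the extracellular matrix. Its levels were 6.32, 6.38 and 6.48 in wildtype and 5.91, 5.89 and 5.49 in the mutant. The gene that passed on arrays 1 and 2 alone was the peroxisomal catalase ctl-2 (adjusted p 0.0265 by limma). It had levels of 10.72, 10.70 and 9.64 in wildtype and 9.82, 9.85 and 9.63 in the mutant. Arrays 1 and 2 were high in wildtype, and pair 3 differed by less than 0.02.

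Beyond the 2 calls, genes were described by whether the 3 mutant arrays lay outside the range of the 3 wildtype arrays. Of the 9333 genes clear of the floor, 209 were higher on every mutant array (2.24%) and 506 were lower (5.42%). That split depended on the scaling. After each array was centred on its median, which adds 0.13 to every difference, the counts were 450 higher and 260 lower, and after a repeated quantile normalization they were 285 and 434. On the deposited scale 12 of the higher genes and 65 of the lower ones differed by at least 1 log2 unit. With 3 arrays a group, a share of genes is without overlap in each direction even where genotype has no effect. The counts were not tested against that share, so lack of overlap alone does not mark a gene as changed. None of the genes described in this and the following paragraphs passed over all probe sets in the model of all 12 arrays.

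Among the higher genes, lips-16, a lipase-related gene on chromosome II, had the smallest p. Its levels were 5.66, 4.75 and 4.94 in wildtype and 6.80, 6.78 and 6.79 in the mutant. The mutant arrays agreed within 0.02 log2 units (SD 0.01), and each lay above every wildtype array. The difference was 1.68 ± 0.23, or 3.19-fold, with an adjusted p of 0.151 by limma. Without wildtype array 1 it passed, at 1.95 and an adjusted p of 0.0134. At 20 µM the difference was 0.87, also without overlap.

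Among the genes clear of the floor without overlap, C10C5.3 was furthest above wildtype, with levels of 5.05, 4.68 and 5.47 in wildtype and 7.83, 6.83 and 7.11 in the mutant. The difference was 2.19 ± 0.65, and 1.86 at 20 µM. B0034.4 had levels of 5.43, 5.66 and 6.33 in wildtype and 7.88, 7.17 and 7.56 in the mutant, a difference of 1.74 ± 0.41. Both were higher in each pair, by at least 1.23 in pair 3. F45D11.1 differed by 1.55 ± 0.39, with pairs of 2.15, 1.60 and 0.89.

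F52E1.5 had levels of 7.14, 6.98 and 6.86 in wildtype and 8.30, 7.89 and 8.42 in the mutant, highest on mutant array 3. Its difference was 1.21 ± 0.22, with an adjusted p of 0.616 by limma, and 0.16 at 20 µM. cpr-2, a cathepsin B-like cysteine protease, had levels of 8.27, 9.35 and 9.02 in wildtype and 9.83, 9.89 and 10.79 in the mutant. The difference of 1.29 ± 0.48 was again largest in pair 3. R09E10.1 differed by 1.24 ± 0.51. T16A9.3 (1.32 ± 0.42), ddo-2 (1.19 ± 0.57), F32D8.11 (1.07 ± 0.58) and C56E10.3 (1.06 ± 0.46) were high in pairs 1 and 2, and in pair 3 differed by 0.16, 0.13, 0.47 and 0.23. hmg-1.2, which encodes an HMG-box chromatin protein, differed by 0.69 ± 0.18, while its other probe sets differed by 0.11 and -0.67.

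**Figure D3:**
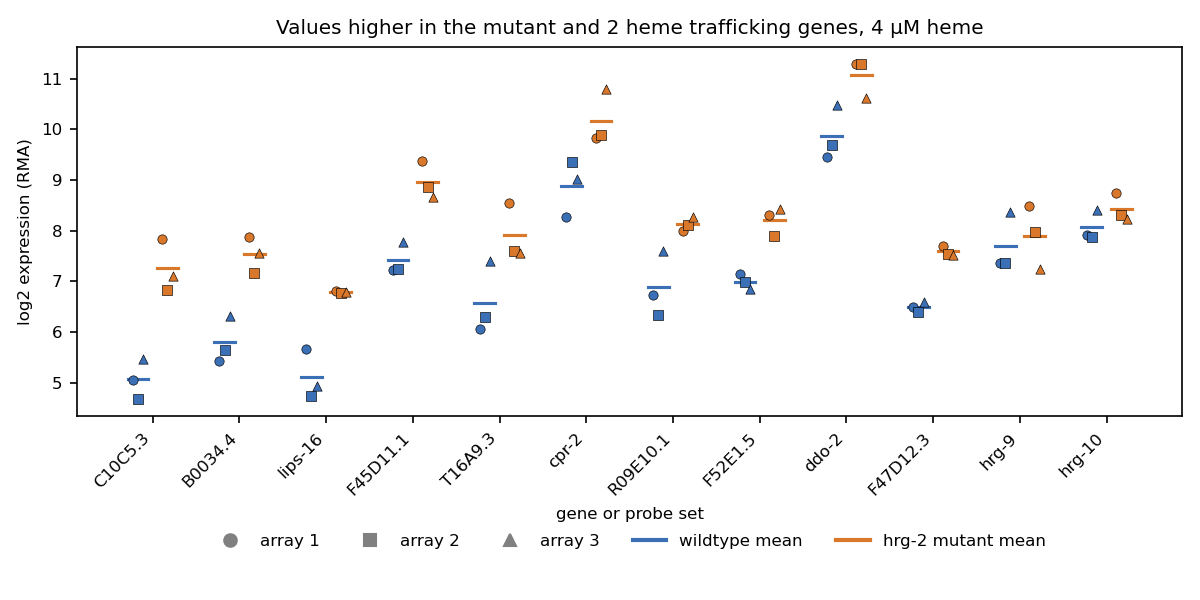
Log2 expression at 4 µM heme on each array (symbols mark the arrays numbered 1 to 3, bars the group means) for 10 genes higher on every mutant array and for hrg-9 and hrg-10, whose groups overlap. The 3 mutant values of lips-16 coincide near 6.79, and those of C10C5.3 lie between 6.83 and 7.83 against 4.68 to 5.47 in wildtype.

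Among the lower genes, scav-5, a member of the CD36-like scavenger receptor family, was furthest below wildtype. Its levels were 7.75, 7.90 and 6.85 in wildtype and 4.26, 4.61 and 6.20 in the mutant. Pairs 1 and 2 differed by -3.49 and -3.29 and pair 3 by -0.65, for a difference of -2.48 ± 0.60. Another probe set of scav-5 differed by -1.75, but by 0.02 in pair 3, so its groups overlapped. At 20 µM scav-5 differed by -1.76, also without overlap. C17F4.7 was among the brightest of these genes, at 12.78, 12.80 and 12.79 in wildtype and 9.65, 9.72 and 12.04 in the mutant. The wildtype arrays were nearly equal, and mutant array 3 lay between them and mutant arrays 1 and 2.

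dlhd-1, which encodes a protein with a dienelactone hydrolase domain, had levels of 7.59, 8.22 and 6.32 in wildtype and 4.97, 5.27 and 5.70 in the mutant. Its difference was -2.06 ± 0.49 at 4 µM and -1.64 at 20 µM, without overlap at either. lys-6, a lysozyme gene, had levels of 11.21, 11.62 and 10.16 in wildtype and 8.99, 9.69 and 9.05 in the mutant. It was lower in each pair, by -2.21, -1.93 and -1.10, and by -0.87 at 20 µM without overlap. Y39B6A.29 differed by -1.57 ± 0.47 and zip-10, a bZIP transcription factor gene, by -1.43 ± 0.68, both least in pair 3.

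Every gene lower on each mutant array without overlap is by construction lower in each pair. For bed-3, C17G1.5 and C06B8.7 the fall in pair 3 was not the smallest of the pairs. bed-3, a zinc-finger transcription factor gene needed for molting, had levels of 6.24, 7.04 and 6.68 in wildtype and 5.30, 5.23 and 4.85 in the mutant. C17G1.5 had levels of 6.81, 6.74 and 5.99 in wildtype and 4.80, 5.55 and 4.38 in the mutant. C06B8.7 had levels of 6.25, 6.25 and 6.24 in wildtype and 4.99, 5.47 and 4.83 in the mutant. The wildtype arrays of C06B8.7 were nearly equal and the mutant arrays all lower, by -1.15 ± 0.20 (adjusted p 0.563 by limma).

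lec-12, a galectin gene, had levels of 9.63, 9.45 and 9.48 in wildtype and 8.82, 8.70 and 8.65 in the mutant. Its pairs of -0.81, -0.75 and -0.83 were even, and its adjusted p was 0.563 by limma, but its other probe set differed by 0.24. pqn-89, named for a glutamine- and asparagine-rich domain, differed by -1.27 ± 0.24, with pairs of -1.41, -1.03 and -1.37. sorf-1, which acts on phosphoinositide turnover of endosomes, differed by -0.84 ± 0.17. W07E11.1 differed by -1.05 ± 0.21 (another probe set 0.32) and H01M10.1 by -1.19 ± 0.43. C17F4.3 (-1.77 ± 0.53), T05C1.3 (-1.45 ± 0.73) and Y54F10AM.6 (-1.43 ± 0.57) were lower on every mutant array by amounts that varied between pairs. At 20 µM the differences were -0.28 for C06B8.7, -0.11 for lec-12, -0.05 for pqn-89 and -0.02 for sorf-1, with overlapping groups.

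Cuticle collagens are the main product of the hypodermis, where HRG-2 acts. Of 146 collagen genes measured, 0 passed, 18 were lower on every mutant array (12.3%) and 4 were higher (2.74%). Beside them stand the 3.93% and 4.91% of all genes. The median collagen difference was -0.20, with medians of -0.28, -0.01 and -0.41 in the 3 pairs. On arrays centred on their medians the counts were 11 lower and 10 higher, and on arrays 1 and 2 alone 15 passed as lower and 9 as higher. Many of these probe sets carry the suffixes that mark probes shared between genes, and collagen genes are alike in sequence, so single members are uncertain.

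The furrow collagens, which build the circular grooves of the cuticle and are made together in each molting cycle, had wide differences in pair 3. dpy-7 had levels of 9.50, 8.91 and 9.17 in wildtype and 7.88, 8.57 and 7.01 in the mutant, a difference of -1.37 ± 0.53 without overlap. Its pairs were -1.61, -0.34 and -2.17. Pair 3 differed by -2.44 for dpy-2, -1.97 for dpy-3, -2.24 for dpy-8 and -2.03 for dpy-9, which in pair 2 lay between 0.02 and 0.44. At 20 µM these genes and dpy-7 differed by 0.34 to 0.52, with overlapping groups.

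sqt-1, a collagen whose mutants have twisted bodies, had levels of 12.50, 12.62 and 12.67 in wildtype and 11.70, 12.38 and 11.30 in the mutant. rol-6, its partner in body shape, differed by -0.63 ± 0.28 and also had its lowest value on mutant array 3, at 11.01. More even among pairs were col-182 (-0.63, -0.87 and -1.59), col-111 (-0.91, -0.90 and -1.32), col-73 (-0.69, -0.37 and -0.85) and col-14, which had levels of 10.98, 10.83 and 12.01 in wildtype and 10.06, 10.28 and 10.83 in the mutant. These were lower on every mutant array.

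**Figure D4:**
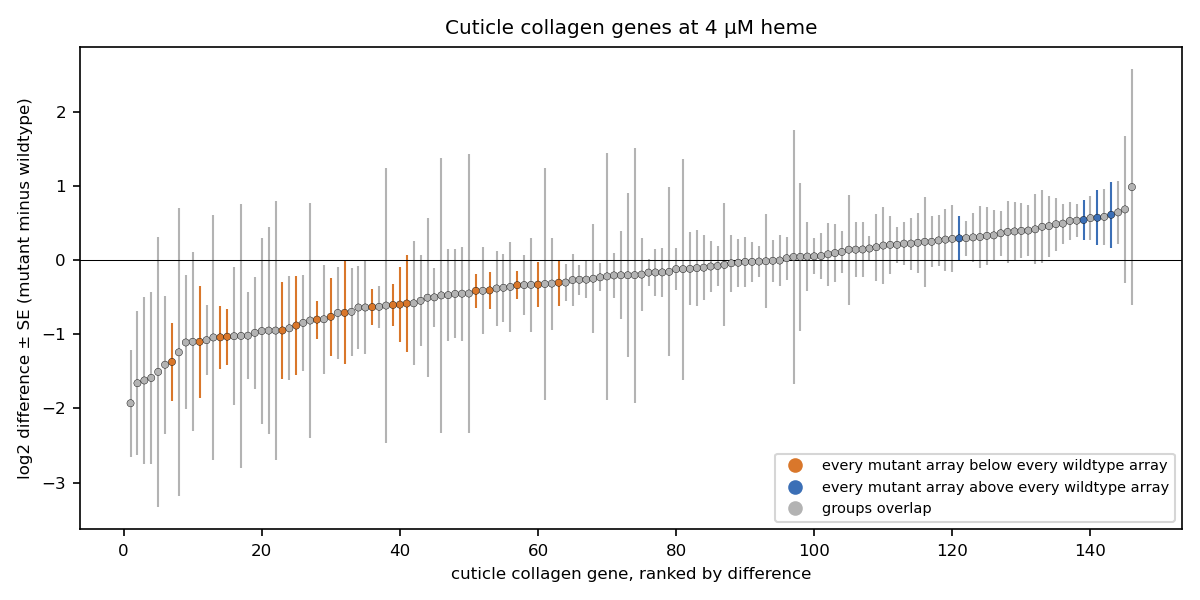
The 146 cuticle collagen genes are ranked along the x axis by their log2 difference (mutant minus wildtype, y axis, error bars are SE) and coloured by whether the groups overlap. The 18 genes lower on every mutant array are spread along the lower side, and the 4 higher ones lie between 0.29 and 0.61.

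Of 19 hypodermal markers, 5 were lower on every mutant array, and these 5 belong to the 9 that are collagens. After centring 1 was lower, and 0 passed on arrays 1 and 2 alone. The 10 remaining markers had a median of -0.02 and 0 without overlap. The summed level of the list was 15.31, 15.31 and 15.38 (log2) in wildtype and 14.91, 15.16 and 14.88 in the mutant, which did not overlap. In RNA of whole animals, fewer cells of a type and less RNA per cell cannot be told apart. Of 28 genes of molting and the apical matrix, 24 lay below 0, with a median of -0.34 and 0 without overlap. Their pair medians were 0.07, 0.20 and -1.56, so the list was lower in pair 3 alone. noah-2, a zona pellucida-domain protein of the apical matrix, had levels of 8.77, 8.22 and 7.27 in wildtype and 7.39, 7.26 and 5.34 in the mutant.

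Hedgehog-related and patched-related genes, which act in cuticle secretion and molting, numbered 80, with 7 lower (8.75%) and 2 higher (2.50%) on every mutant array, against 3.93% and 4.91% of all genes. After centring 4 were lower and 3 higher, and on arrays 1 and 2 alone 1 passed as lower and 2 as higher. ptc-3, a patched homologue, had levels of 8.02, 8.27 and 7.64 in wildtype and 6.86, 7.07 and 6.62 in the mutant. Its pairs were even, at -1.16, -1.19 and -1.02, for a difference of -1.12 ± 0.26, and it differed by -0.05 at 20 µM. grl-10 differed by -1.07 ± 0.45 with overlapping groups. The 33 astacin metalloproteases, of which several process the cuticle, had a median of 0.12 and 0 without overlap (3 higher after centring), and 2 passed as higher on arrays 1 and 2 alone.

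Glutathione S-transferases conjugate glutathione to reactive compounds, and some of the family bind heme. Of 45 measured, 34 lay below 0 and the median was -0.32, against 0.04 over all genes. On every mutant array 4 were lower (8.89%) and 1 higher (2.22%), against 3.93% and 4.91% of all genes. The pair medians were -0.40, -0.42 and -0.18, and on centred arrays the median was -0.19, with 3 lower and 2 higher. gst-27 had levels of 12.30, 12.43 and 11.70 in wildtype and 10.64, 11.11 and 11.13 in the mutant, a difference of -1.18 ± 0.25. gst-38 was lower on every mutant array at a lower level, by -0.57 ± 0.19. gst-26 (-0.91 ± 0.38) and gst-13 (-1.18 ± 0.60) overlapped because of wildtype array 3, which lay at 9.36 and 7.21.

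On arrays 1 and 2 alone, 11 glutathione S-transferases passed as lower and 1 as higher, where 6.59% of all genes passed as lower and 5.39% as higher. UDP-glucuronosyltransferases, the other large family of conjugating enzymes, had 11 higher and 2 lower there. Of the 64 measured, 3 were higher and 0 lower on every mutant array, with a median of 0.09 and pair medians of 0.22, 0.18 and -0.09. ugt-24 had levels of 7.52, 7.67 and 8.30 in wildtype and 8.99, 8.57 and 8.35 in the mutant. ugt-4 had levels of 3.54, 3.03 and 4.56 in wildtype and 5.52, 4.72 and 5.09 in the mutant, below the median of the arrays. ugt-66 was higher on mutant arrays 1 and 2, and its pair 3 differed by -0.14.

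Genes of superoxide and peroxide defence, 25 in number, had a median of -0.02. Of these, 3 were lower on every mutant array (12%, against 3.93% of all genes), and 2 after centring. On arrays 1 and 2 alone 4 passed as lower. gpx-6, a glutathione peroxidase homologue, had levels of 7.09, 7.59 and 7.37 in wildtype and 6.31, 6.66 and 6.69 in the mutant. prdx-6, a peroxiredoxin, differed by -0.47 ± 0.17 without overlap. The superoxide dismutases sod-1 and sod-2 differed by -0.76 ± 0.31 and -0.99 ± 0.37, lower on mutant arrays 1 and 2 and higher on mutant array 3 than on wildtype array 3.

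Of 18 iron and metal homeostasis genes, 2 were lower on every mutant array (11.1%, against 3.93% of all genes). These are the worm's metallothioneins. mtl-1 had levels of 12.32, 12.68 and 12.41 in wildtype and 11.26, 11.61 and 12.30 in the mutant. mtl-2 had levels of 10.52, 10.57 and 10.29 in wildtype and 9.71, 9.91 and 9.80 in the mutant, and its other probe sets differed by -0.38 and -0.68. mtl-1 was close to wildtype on mutant array 3, while mtl-2 was lower in each pair, by -0.81, -0.66 and -0.49. Of the list, 3 passed as lower and 1 as higher on arrays 1 and 2 alone, and after centring 1 was lower and 2 higher without overlap. cutc-1, a copper homeostasis gene, differed by 0.53 ± 0.22 (another probe set -0.51).

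Of 21 heat-shock proteins, 1 was lower on every mutant array, and 6 passed as lower on arrays 1 and 2 alone. This was hsp-16.41, a small heat-shock protein, with levels of 5.29, 5.29 and 6.56 in wildtype and 3.94, 3.38 and 5.13 in the mutant. hsp-16.2, of the same group, had levels of 7.74, 7.31 and 8.87 in wildtype and 4.82, 3.43 and 7.49 in the mutant. Its highest mutant array reached into the wildtype range, for a difference of -2.73 ± 0.91, and at 20 µM it differed by -2.50 without overlap. hsp-70 was also lower in each pair and high on both arrays numbered 3, and differed by -1.55 ± 0.98. hsp-3, a chaperone of the endoplasmic reticulum, differed by -1.07 ± 0.35, least in pair 3.

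The respiratory chain contains heme in its cytochromes. Of its 41 measured genes 32 lay below 0, with a median of -0.15 that became -0.02 on centred arrays, and 2 were lower on every mutant array (0 after centring). There were 8 that passed as lower on arrays 1 and 2 alone. nduf-5, a complex I subunit, had levels of 11.03, 10.96 and 10.25 in wildtype and 10.17, 10.20 and 10.05 in the mutant. nuo-5 and nduf-7, of the same complex, differed by -0.73 ± 0.29 and -0.67 ± 0.30. mev-1, the cytochrome b subunit of complex II, had levels of 9.68, 9.40 and 8.05 in wildtype and 8.61, 8.52 and 8.20 in the mutant, lower on arrays 1 and 2 and not on array 3.

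Of 12 ATP synthase genes, 1 was lower on every mutant array (0 after centring), and 3 passed as lower on arrays 1 and 2 alone. This was atp-4, at 11.93, 12.02 and 11.70 in wildtype and 10.88, 11.34 and 11.65 in the mutant. atp-3 had levels of 11.14, 11.18 and 9.83 in wildtype and 8.59, 9.55 and 10.08 in the mutant, with pair 3 of the opposite sign, and asb-2 differed by -0.60 ± 0.27.

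Of 33 proteasome genes, 26 lay below 0 and 4 were lower (12.1%) and 0 higher on every mutant array, against 3.93% and 4.91% of all genes. Their median was -0.23 (-0.10 on centred arrays, where 3 were lower and 1 higher). The pair medians were -0.56, -0.25 and 0.02, and 7 passed as lower on arrays 1 and 2 alone. pas-5, a subunit of the core particle, had levels of 10.83, 10.66 and 10.37 in wildtype and 9.40, 9.63 and 10.10 in the mutant. It was lower in each pair and least in pair 3, and at 20 µM its difference was -0.00. pbs-7 (-0.91 ± 0.32) and pbs-5 (-0.86 ± 0.30) were also lower without overlap, pas-1 differed by -0.70 ± 0.31 with overlap, and rpn-12, of the regulatory particle, differed by 0.53 ± 0.22. The 75 cytosolic ribosomal protein genes had a median of 0.04, with 3 higher and 1 lower on every mutant array. After centring 18 were higher and 1 lower, and 0 passed on arrays 1 and 2 alone. rpl-39 differed by 0.45 ± 0.15.

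Lipid genes were mixed. Of 21 fatty acid synthesis and desaturation genes, 3 were lower (14.3%) and 1 higher (4.76%) on every mutant array, against 3.93% and 4.91% of all genes. After centring 2 were lower and 1 higher, and on arrays 1 and 2 alone 1 passed in each direction. fasn-1, the fatty acid synthase, had levels of 8.98, 8.81 and 8.22 in wildtype and 7.87, 7.86 and 7.88 in the mutant, a difference of -0.80 ± 0.27 (another probe set -1.58) against 0.05 at 20 µM. elo-1, a fatty acid elongase, differed by -0.43 ± 0.20. fat-1, an omega-3 desaturase, was the gene higher on every mutant array, by 0.23 ± 0.17. Of 26 lipases, 2 were lower and 2 higher (0 and 3 after centring), lips-16 among the latter, while 3 passed as lower and 2 as higher on arrays 1 and 2 alone. lipl-5, a lysosomal lipase, had levels of 10.77, 11.51 and 10.59 in wildtype and 9.08, 9.17 and 11.16 in the mutant, and lipl-2 had the same arrangement. Both were lower on mutant arrays 1 and 2 and higher on mutant array 3.

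Among 51 lysozymes, saposins and dod genes, which act in intestinal defence or respond to insulin signalling, 3 were lower and 1 higher on every mutant array. These are 5.88% and 1.96%, against 3.93% and 4.91% of all genes, and after centring 3 were lower and 2 higher. Beside lys-6, spp-4, a saposin-like protein gene, had levels of 11.38, 11.53 and 11.20 in wildtype and 10.21, 10.70 and 10.61 in the mutant. lys-5 had levels of 7.24, 8.00 and 6.58 in wildtype and 5.53, 5.30 and 6.88 in the mutant, opposite in pair 3. On arrays 1 and 2 alone 12 of the 51 passed as lower and 2 as higher.

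Of 220 C-type lectins, 12 were higher (5.45%) and 3 lower (1.36%) on every mutant array, against 4.91% and 3.93% of all genes. After centring 28 were higher and 2 lower. Their median was 0.15, 67 were clear of the floor, and on arrays 1 and 2 alone 16 passed as higher and 18 as lower. The higher ones lay near the floor. clec-206 had levels of 2.79, 2.60 and 2.37 in wildtype and 3.70, 3.31 and 2.85 in the mutant, and clec-115 differed by 0.70 ± 0.24 at levels of 3.31 to 4.61. The brightest lower one was clec-50, at 11.56, 12.28 and 11.22 in wildtype and 10.65, 10.78 and 11.21 in the mutant. Of 12 galectins 2 were lower (1 after centring, and 3 passed as lower and 1 as higher on arrays 1 and 2 alone), lec-12 and lec-6, the latter at 12.61, 12.44 and 11.72 in wildtype and 11.65, 11.69 and 11.62 in the mutant. The 31 hypodermal antimicrobial peptide genes had a median of 0.08, with 1 lower on every mutant array (0 after centring), and 6 passed as higher on arrays 1 and 2 alone.

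In genes of reproduction pair 3 ran against the others. The yolk proteins (vitellogenins) are made by the intestine of the adult and taken up by oocytes. vit-2 had levels of 10.27, 9.28 and 9.42 in wildtype and 6.23, 5.27 and 12.51 in the mutant. vit-6 had levels of 10.93, 9.76 and 9.12 in wildtype and 7.30, 5.98 and 12.80 in the mutant. In both, mutant arrays 1 and 2 were the lowest and mutant array 3 the highest of the 6. In vit-4 and vit-5 mutant arrays 1 and 2 were again the lowest, wildtype array 1 was the highest and mutant array 3 came next. The differences on all arrays were -1.65 ± 1.80 for vit-2 and -1.25 ± 1.62 for vit-6. vit-1 differed by 0.52 ± 0.89. The 5 vitellogenins had pair medians of -4.04, -2.85 and 3.25, and 4 of them passed as lower on arrays 1 and 2 alone.

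Sperm genes, 71 in number, had pair medians of -1.26, -0.43 and 0.81. Their summed level was 14.87, 13.80 and 16.66 (log2) in wildtype and 12.97, 12.89 and 17.35 in the mutant. Both arrays numbered 3 were high and mutant arrays 1 and 2 low. The major sperm protein gene msp-76 had levels of 10.46, 9.49 and 12.32 in wildtype and 8.22, 7.29 and 12.82 in the mutant, and msp-55 differed by -2.32, -1.45 and -0.15 in the 3 pairs. spe-54 was higher in the mutant in each pair, at 5.08, 5.19 and 7.90 in wildtype and 6.19, 5.91 and 9.00 in the mutant. Of the sperm genes, 16 passed as lower and 1 as higher on arrays 1 and 2 alone, against 6.59% and 5.39% of all genes. These and the following lists bear on the stage of the animals, whose part in the remaining results was not tested.

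Oocyte and eggshell genes, 27 in number, had pair medians of -0.43, -0.24 and 1.92, with a summed level of 12.76, 12.46 and 13.35 in wildtype and 12.67, 12.35 and 14.998 in the mutant. On all arrays 23 of them lay above 0 and 4 below, with a median of 0.41, and 5 were higher in each pair. The 3 of smallest p in the model of all 12 arrays, which are not named here, were higher in each pair. On arrays 1 and 2 alone 4 passed as lower, perm-2 and puf-5 among them, and 0 as higher. perm-2, an eggshell protein gene, had levels of 8.63, 7.62 and 8.71 in wildtype and 5.74, 4.26 and 11.68 in the mutant. puf-5, an RNA-binding protein of oocytes, differed by -1.63, -0.66 and 2.65 in the 3 pairs. Of 30 germ line genes, 1 was lower on every mutant array (0 after centring), and 10 passed as lower on arrays 1 and 2 alone. prg-1, the Argonaute protein of the piRNA pathway, had levels of 9.17, 9.06 and 8.89 in wildtype and 7.81, 7.72 and 9.01 in the mutant. fbf-1, an RNA-binding protein of germ line stem cells, had levels of 6.58, 6.73 and 6.06 in wildtype and 5.23, 5.49 and 6.50 in the mutant. Both were lower on mutant arrays 1 and 2 and not on array 3.

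**Figure D5:**
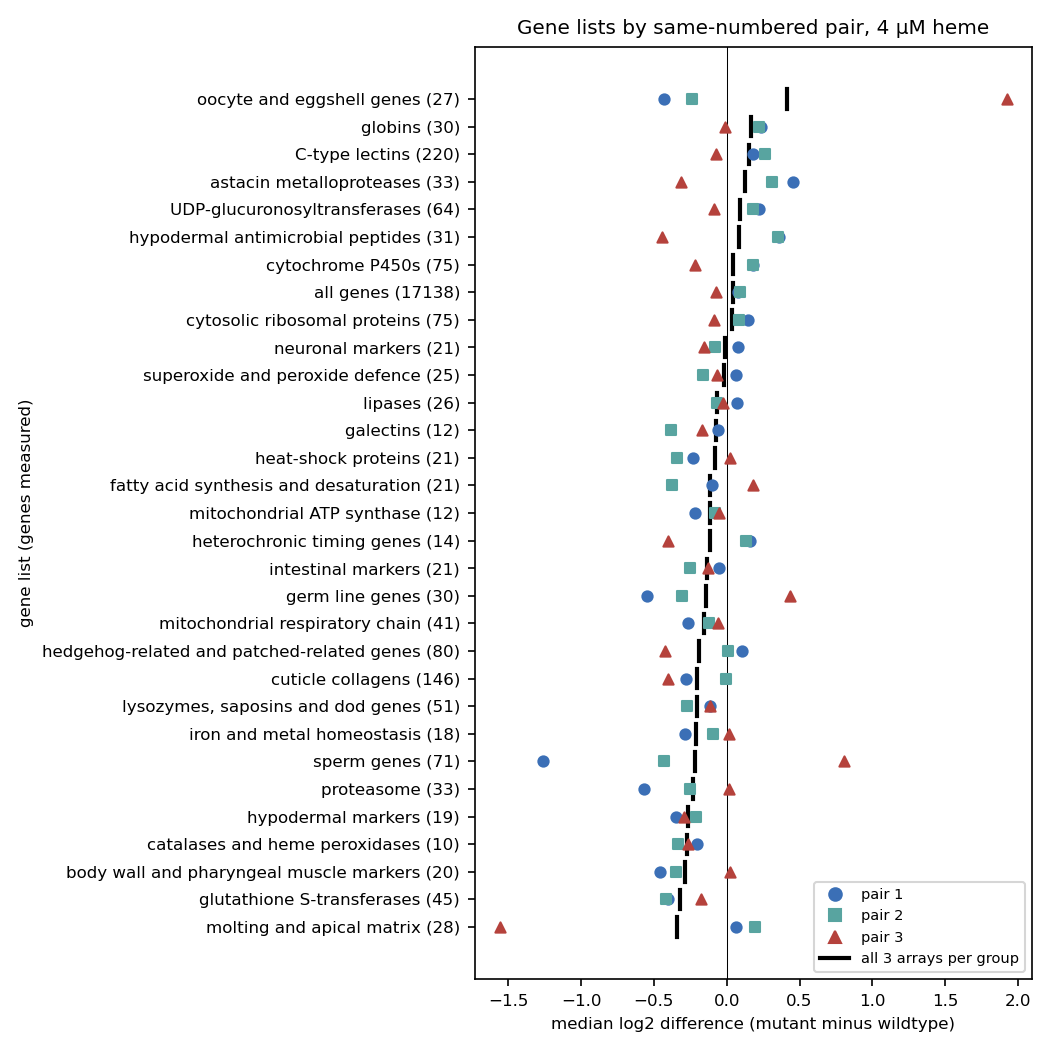
Median log2 difference (mutant minus wildtype, x axis) of each gene list with at least 10 measured genes in the pairs numbered 1, 2 and 3 (symbols) and over all 3 arrays per group (black bar), with the number of genes measured beside each list name. The oocyte and eggshell genes lie at -0.43 and -0.24 in pairs 1 and 2 and at 1.92 in pair 3, while the glutathione S-transferases lie below 0 in every pair.

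Markers of further tissues were counted as well. Of 20 body wall and pharyngeal muscle markers, 3 were lower and 0 higher on every mutant array, against 3.93% and 4.91% of all genes, with a median of -0.29 (-0.15 on centred arrays, where 1 was lower and 1 higher). The pair medians were -0.46, -0.35 and 0.02, and 4 passed as lower on arrays 1 and 2 alone. The myosin heavy chains unc-54, at 12.27, 12.37 and 11.61 in wildtype and 11.46, 11.60 and 11.58 in the mutant, and myo-3, which differed by -0.49 ± 0.17, were among the 3 lower on every mutant array. unc-52, the basement membrane perlecan, had levels of 11.08, 10.51 and 9.15 in wildtype and 8.69, 8.71 and 9.34 in the mutant, and its other probe sets differed by -0.83, -0.44 and 0.55. The 21 intestinal markers had a median of -0.13, with 1 lower on every mutant array (0 after centring) and 2 passing as lower on arrays 1 and 2 alone. The 21 neuronal markers had a median of -0.01 and 0 without overlap, with 1 passing in each direction on arrays 1 and 2 alone. No marker of intestine was near the floor, where the lowest value was 6.48. Among intestinal markers, the cathepsin B-like protease cpr-6 differed by -0.71 ± 0.32 and ifc-1, an intermediate filament gene, by -0.59 ± 0.68. Of 14 heterochronic timing genes 1 was lower on every mutant array (0 after centring, with 1 higher) and 0 passed on arrays 1 and 2 alone, and lin-41, which holds back the larval to adult switch, differed by 0.94 ± 0.40 with overlapping groups.

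On arrays 1 and 2 alone, 2922 of 22548 probe sets passed, 1168 higher (5.18%) and 1754 lower (7.78%). Pair 3 had the same sign for 281 of the 923 higher genes (30.4%) and 426 of the 1129 lower (37.7%). acs-2, an acyl-CoA synthetase of mitochondrial fatty acid oxidation, had levels of 8.38, 6.77 and 11.32 in wildtype and 10.54, 10.57 and 11.82 in the mutant. It was higher in each pair, and wildtype array 3 was already high. F57G8.7 was higher on mutant arrays 1 and 2, at 8.97 and 8.39 against 6.19 and 4.36, and near wildtype on array 3.

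Genes that ran the opposite way in pair 3 included some of the widest differences. Y51A2A.4 had levels of 3.79, 2.98 and 5.72 in wildtype and 8.59, 8.40 and 3.29 in the mutant. lact-6, a beta-lactamase domain gene, had levels of 3.92, 3.74 and 5.19 in wildtype and 8.20, 8.06 and 4.71 in the mutant. Mutant arrays 1 and 2 stood well above the remaining 4 arrays for both genes. In the other direction, dod-6 had levels of 10.22, 10.30 and 9.29 in wildtype and 6.52, 6.99 and 9.51 in the mutant, and mbug-1 had levels of 10.30, 10.46 and 8.38 in wildtype and 7.36, 7.22 and 9.16 in the mutant. These genes passed on arrays 1 and 2 alone, with adjusted p from 0.000481 to 0.00823 by limma, and none passed with array 3 included.

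The genotype effect at 4 µM was also set against that at 20 µM. The difference between the effects passed for 0 of 22548 probe sets by limma, with 372 at an unadjusted p under 0.05 (1.65%) and a smallest adjusted p of 0.674, for 185275_at. Of the 209 genes higher on every mutant array at 4 µM, 137 lay above 0 at 20 µM (65.6%) and 21 were again without overlap. Of the 506 lower genes, 348 lay below 0 (68.8%) and 47 were again without overlap. Over all 17138 genes, 49.1% lay above 0 at 20 µM. Without overlap at 20 µM, irrespective of 4 µM, were 2.99% of all genes in the higher and 3.38% in the lower direction. These shares include genes near the floor, whereas the 209 and 506 genes are clear of it, so the sets are unlike. F47D12.6, F47D12.3, lips-16, scav-5, dlhd-1, lys-6, mtl-1, fat-1 and hsp-16.41 were among the genes that kept their direction without overlap at both heme supplies. Of these, hsp-16.41 was not clear of the floor.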

How the data were processed

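Deposited were log2 expression values; the submitters' processing notes name RMA and Partek 6.5, and no sources used here give the settings. Of 22625 probe sets, 77 controls were left out. The platform annotation pairs 1 symbol with 20810 probe sets, several with 843 and none with 895; RefSeq (WBcel235) changed 0 symbols. A gene is represented by its probe set of highest mean, and no coordinates are given because the build of the array design is not stated.

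One model of 4 group means was fitted to the 12 arrays by lmFit and eBayes of limma 3.58.1 (R 4.3.3; two-sided tests), with the contrasts mutant minus wildtype at 4 µM and the difference of that effect between 20 and 4 µM. P-values were Benjamini-Hochberg adjusted over 22548 probe sets, with a threshold of 0.05. Errors are moderated SEs. The code was tested on simulated data. Members, gene lists and tests were chosen with earlier results of these data known, and no list was tested as a set.

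The genes named were drawn from a rule that gave 191 genes or probe sets, and not all of these are described. No further rule is stated for those left out. The rule took the probe sets that passed and the measured genes of heme trafficking, the cdr family and clone F47D12. It took the 12 largest differences in each direction among genes clear of the floor without overlap. Of the same genes it took the 6 of smallest p in each direction (also with the block). From each list it took up to 3 of smallest p and 3 called in an alternative. Last came the 8 largest called on arrays 1 and 2 per direction, with pair 3 of the same and of the opposite sign. Outside that rule, clec-50, col-111, col-14, col-73, dpy-2, dpy-3, dpy-8, dpy-9, fat-1, gpx-6, lipl-2, lys-5, msp-55, rpn-12 and vit-1 were chosen after their values were seen.

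In each group the titles give array numbers from 1 to 3. The pair differences follow these numbers. Same-numbered arrays deviated together from their group means (r = 0.489, 0.654 and 0.704). Because array 3 stood apart in both genotypes, these r values cannot show whether arrays 1 and 2 pair by number. Arrays 1 and 2 also correlated across numbers, at 0.527 and 0.579, and the difference of array 1 and array 2 correlated between genotypes at r = 0.0771. Alternatives were the replicate block, the 2 groups alone, arrays 1 and 2 alone, other scalings, a filter on the mean, other variance settings and leaving out each array.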

Additional observations from a re-analysis of the deposited data

How the results depend on the processing

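At 4 µM heme 2 probe sets passed. With the replicate block 2 passed (2573 at an unadjusted p under 0.05, against 1378), also with the 2 groups alone and the block, after median centring, after quantile normalization and with an intensity trend, and the replicate block ended no call named in the report. The count was 1 with the 2 groups alone, where 185275_at was lost, and 2922 on arrays 1 and 2 alone. It was 0 among probe sets with a mean above the median, a filter that removes F47D12.6 and 185275_at (601 at an unadjusted p under 0.05). It was 4 without variance moderation, with lec-12 and rin-1 added, and 3 with array weights, with lips-16 added. Leaving out each array gave 2 to 5, with 5 without mutant array 3, where single probe sets of F07H5.10, F58E6.8 and W08A12.2 were added. The difference between the effects at 20 and 4 µM passed for 0 probe sets, and for 1 (185275_at, adjusted p 0.04997) with array weights; leaving out each array gave 0 to 0.

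Of 133 genes or probe sets named in the report, 118 kept their sign under every alternative run. Many were chosen because their groups do not overlap, and leaving out arrays cannot turn the sign of such a gene. The count is therefore partly set by the selection and is no measure of robustness. On arrays 1 and 2 alone the sign turned for cdr-2 (0.11), hrg-4 (0.0616), mrp-5 (0.22), dpy-8 (0.0755), puf-5 (-1.14) and vit-1 (-0.86), with array weights for cdr-2 (0.28), hrg-4 (0.0402), mrp-5 (0.0684), dpy-2 (0.0016), dpy-8 (0.0605), puf-5 (-0.68) and vit-1 (-0.11), after median centring for cdr-2 (0.13), hrg-4 (0.0404) and mrp-5 (0.0529), and after quantile normalization for cdr-2 (0.0429). Leaving out each array, the differences ran from -0.60 to 0.72 for cdr-2, -1.09 to 0.0835 for cdr-6, -0.58 to 0.13 for hrg-1, -0.42 to 0.38 for hrg-4, -0.0041 to 0.36 for hrg-7, -0.0866 to 0.54 for hrg-9, -0.29 to 0.18 for mrp-5, -3.32 to 0.39 for perm-2, -1.17 to 0.89 for puf-5, -0.0078 to 1.90 for spe-54, -0.0065 to 1.93 for ugt-66, -0.56 to 1.23 for vit-1 and -3.30 to 0.11 for vit-6. These genes did not pass in the model of all 12 arrays, and the cause of each turn was not tested. Signal limits the result for genes near the floor, where a fold is understated.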

Other observations

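The share of genes higher on every mutant array at 4 µM varied by chromosome. It was 4.44% on I, 5.50% on II, 4.04% on III, 4.08% on IV, 6.45% on V and 3.61% on X. The share lower on every mutant array was 4.65% on I, 3.58% on II, 4.84% on III, 4.20% on IV, 2.96% on V and 4.25% on X. Chromosome V, which carries hrg-2, also had a median difference of 0.08, against 0.04 over all genes. These shares count genes at every level, near the floor or clear of it, and were not tested.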
